A study of Apis mellifera with 24 samples.

Results

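In 65 genes of the honey bee worker brain, the allele inherited from the European parent gave more reads than the allele inherited from the Africanized parent in each of 4 families. The 65 genes were chosen by that property. For every gene listed in the allele tables of both reproductive and sterile bees (3524 genes), reads were summed over the 6 sisters of a family, and 3469 genes had at least 40 allele reads in each of the 4 families. The European share is the percentage of a gene's allele reads that came from the European parent. A gene was taken when its European share was 55% or more in at least 3 families and above 50% in the fourth. The shares, and any comparison of European with African reads over the same bees, therefore describe how the genes were chosen, and nothing is supported by them.

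PolyA RNA was sequenced from the brains of 24 individual workers bred by crossing Africanized (Afr) with European (Eur) honey bees in both directions. In the lineages L888 and L894 the mother was Africanized and the father European (Afr x Eur, mother first), and in L875 and L882 the mother was European and the father Africanized (Eur x Afr). L888 and L875 form block A, and L894 and L882 form block B. Each lineage gave 3 reproductive and 3 sterile workers, so that 12 reproductive bees stand against 12 sterile bees. All bees were raised in colonies without a queen for about 18 days, in which workers can activate their ovaries, and the brains were lyophilized before dissection. A lineage is 1 family of sisters, so that within a block the direction of the cross and the family cannot be told apart, and the spread among sisters does not cover differences between families. In bulk brain RNA, fewer cells of a type and less RNA per cell cannot be told apart.

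A worker bee carries 1 copy of each gene from the queen and 1 from a haploid drone. Because both copies sit in the same cells and meet the same regulatory proteins, a difference in reads between them is commonly read as a difference in the DNA close to the gene, in an imprint-like mark set by a parent, or in how well reads match each allele. A reciprocal cross separates these readings in part, since an allele that keeps its lead when it passes from the mother to the father follows its ancestry and not its parent of origin. The gene identifiers are paired with no gene name in the tables used here, and 0 of the 15314 identifiers of the expression table occur in the reference table, so that genes are given by identifier, without names, roles or sequences.

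Allele reads summed to between 3.20 and 9.31 M (mega) reads per bee, and the total expression table, which holds expected counts, summed to between 5.19 and 16.7 M per bee. The 65 genes held 0.848% of all allele reads, between 21634 and 73330 reads per bee. Among the 24 libraries, the bee L888 Sterile 2 stood apart. Of all its allele reads 56.9% were European, against 53.0% to 53.9% in its 5 sisters, and its median European share over the 65 genes was 83.7%, against 63.6% to 69.6% in its sisters. The allele columns carry a letter, A in reproductive and I in sterile bees of 3 lineages, but in L888 it is I in reproductive and A in sterile bees, while the table and the sample labels give the same status for each bee. Status differences of the set are therefore given as labelled, without L888 and with its statuses exchanged. The same holds for genes named for the smallest p by status, in the log2 difference they were named for. GB40689, named for its result in block B, which does not hold L888, is given as labelled only.

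The mean European share over the 4 lineages lay between 56.3% and 85.1% for the 65 genes, with a median of 65.2%. It was 75% or more in 8 genes, from 60% to under 75% in 43 and below 60% in 14. The summed allele reads of a gene ran from 258 to 167324, with 18 genes below 1000 reads. In 30 genes the share was at least 55% in all 4 lineages, and in 15 genes it was at least 60% in all 4. The other 35 genes had 1 lineage between 50% and 55%, which was L888 in 5 genes, L894 in 1, L875 in 14 and L882 in 15.

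**Figure D1:**
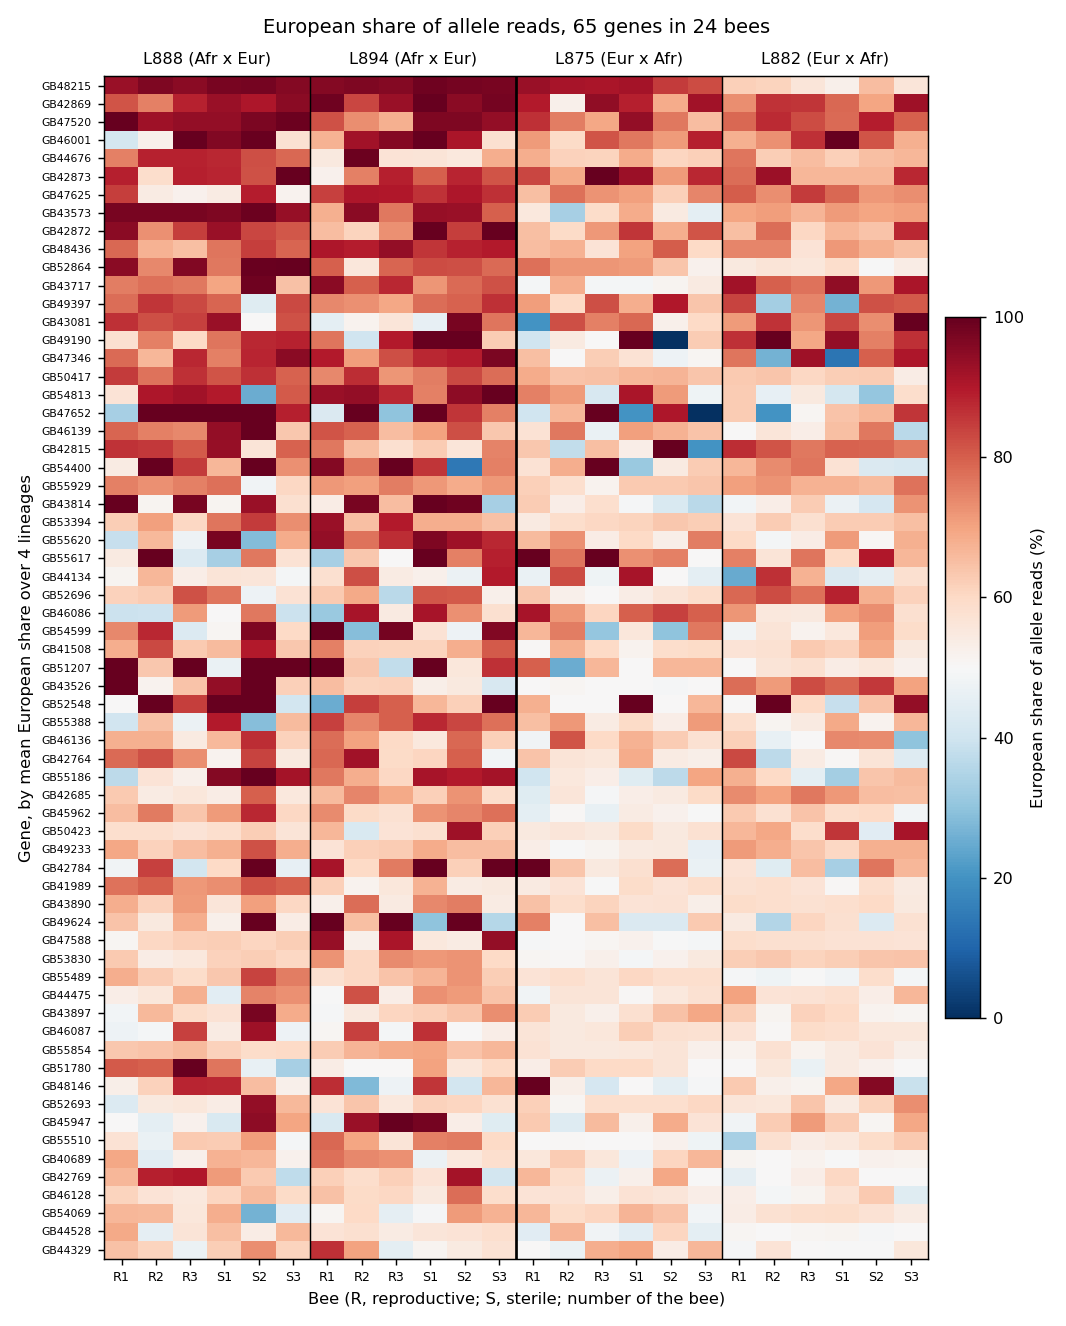
European share of allele reads (%, colour) of each of the 65 genes (rows, by mean share over lineages) in each of the 24 bees (columns, by lineage and status). Red stands for more European and blue for more African reads; 13 genes were above 50% in 24 of 24 bees, and the columns of L888 and L894 are darker red than those of L875 and L882.

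Single bees carried the same lean less uniformly. Of the 1560 pairs of a gene and a bee, 1335 (85.6%) had a European share above 50%. Between 47 and 61 of the 65 genes were above 50% in a bee, with a median of 59 in Afr x Eur bees and of 53.5 in Eur x Afr bees. Per gene, between 15 and 24 bees were above 50%, with a median of 21. In 13 genes all 24 bees were above 50%, in 30 genes 20 to 23 bees, and in 22 genes fewer than 20. When 1 bee at a time was left out, between 63 and 72 genes met the thresholds.

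GB48215 had the highest mean share. In its 6 sisters of L888 the European share ran from 93.2% to 97.8% with a median of 96.2%, and in L894 from 96.1% to 98.6% with a median of 97.1%. In L875 it ran from 82.5% to 93.1% with a median of 91.0%, and in L882 from 52.4% to 65.3% with a median of 58.6%. The 6 bees of L882 lay below every bee of the other 3 lineages, and in both Afr x Eur families the African allele gave few of the reads. The 4 lineages gave 1813 (L888), 2812 (L894), 829 (L875) and 2332 (L882) allele reads for it.

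GB42869 had the second highest mean share and was high in all 4 lineages. Its median share was 89.5% (L888), 96.6% (L894), 89.3% (L875) and 82.2% (L882). One bee, L875 Reproductive 2, had 52.7% and lay below the other 23, which had 68.6% or more. Depth was low, with 39 to 234 allele reads per bee.

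The genes with the most reads had milder shares. GB49233, with 167324 allele reads over the 24 bees, had median shares of 68.1% (L888), 63.9% (L894), 52.4% (L875) and 67.8% (L882). In L875 2 of the 6 sisters lay below 50%, at 49.8% and 45.9%, so that this gene met the threshold through the other 3 lineages. GB55388 had 166485 allele reads and median shares of 55.8% (L888), 81.6% (L894), 62.3% (L875) and 56.5% (L882). In L888 its sisters disagreed widely, with 40.6%, 64.6% and 47.1% in reproductive bees, against 89.8%, 28.7% and 65.8% in sterile bees. Each of these values rests on at least 7201 allele reads. The 166485 allele reads of this gene stand against 16770 expected counts over the 24 bees.

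At the edge of the rule, GB43526 and GB43814 were just inside, with lowest lineage shares of 50.12% and 50.14%, both in L875. GB55685 and GB40971 met 55% in the other 3 lineages and were just outside, with exactly 50% in L875 and 49.98% in L888. The difference between inside and outside here is smaller than the spread among sisters, which itself varied widely. In the lineage with the lowest share the SD was 0.50 points for GB43526 and 0.19 points for GB40971, whose sisters all lay near 50%. It was 9.9 points for GB43814 and 19.2 points for GB55685. With a threshold of 60% in 3 lineages 34 genes met the rule, and with one midway between 50% and 55% 108 did. With only the 12 reproductive bees or only the 12 sterile bees, and 20 reads per lineage, 75 and 85 genes met the rule, of which 51 and 48 were among the 65. Mirror thresholds gave 27 genes for the African allele, 276 with more paternal reads and 19 with more maternal reads.

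European shares were higher where the European allele came from the father. The mean share of the 2 Afr x Eur lineages exceeded that of the 2 Eur x Afr lineages in 56 of the 65 genes (86.2%), with a median difference of 8.56 percentage points. Over all 3469 genes the same direction held in 85.6%, with a median difference of 5.46 points, so that the share of the 65 genes is close to the background. Among the 27 genes favouring the African allele it held in 19 (70.4%), with a median difference of 10.6 points. The median share of the 65 genes was 69.3% (L888), 70.7% (L894), 58.5% (L875) and 60.6% (L882). Over all genes it was 52.2% (L888), 52.3% (L894), 49.6% (L875) and 49.2% (L882). Without L888 Sterile 2 the median difference was 8.06 points in the 65 genes and 5.26 points in all genes.

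**Figure D2:**
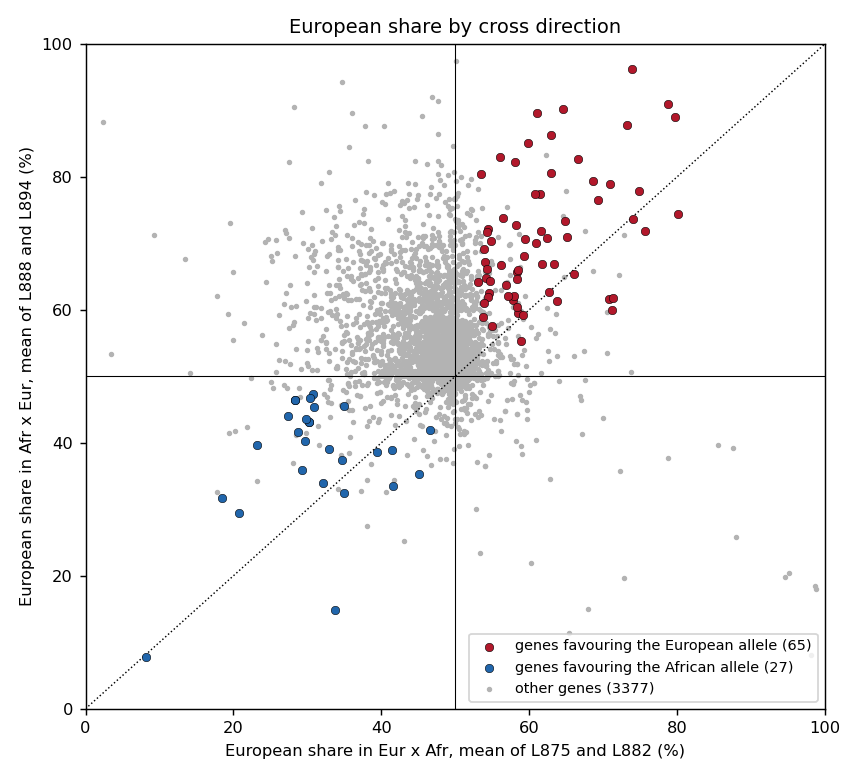
Mean European share (%) in the Afr x Eur lineages (vertical axis) against that in the Eur x Afr lineages (horizontal axis), 1 point per gene, with lines at 50% and a dotted line of equality. Of the 65 genes (red), which the thresholds place in the upper right, 56 lie above the line of equality, as do 85.6% of all genes.

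The genes with the largest gap between directions were GB43573 and GB47652. GB43573 had median shares of 97.4% (L888), 86.5% (L894), 54.9% (L875) and 69.98% (L882), and its mean over the Afr x Eur lineages was 28.6 points above that over the Eur x Afr lineages. In L888 no sister was below 93.4%, whereas in L875 the lowest was 33.5%. GB47652 had a gap of 27.01 points, but only 49 allele reads in L875 and 58 in L894, where a bee could have 1 or 2 reads. The opposite order was largest in GB46086 and GB55617, at -11.3 and -9.42 points. GB46086 had a median share of 44.8% (L888), 65.4% (L894), 79.9% (L875) and 64.3% (L882).

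How far sisters differed varied between the genes. The pooled standard deviation of the European share among sisters of a lineage had a median of 11.8 percentage points in the 65 genes. It was 15.4 points in the 27 genes favouring the African allele and 6.97 points in the other 3377 genes. The 65 genes had fewer reads, with a median of 3738 allele reads per gene over the 24 bees against 7245 in the other genes, and the part of depth in this spread was not tested. The smallest spreads were 2.41 points in GB55854 and 3.37 points in GB48215. GB55854 had 59.3% to 65.9% (L888), 62.7% to 69.8% (L894), 52.7% to 57.1% (L875) and 51.6% to 57.5% (L882), so that every Afr x Eur bee lay above every Eur x Afr bee. The largest spreads were 30.2 points in GB47652 and 24.3 points in GB52548, with as few as 1 and 8 reads in a bee.

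Exact or near balance was counted where depth allowed. Among pairs of a gene and a bee with at least 1000 allele reads, 5.57% of 287 pairs in the 65 genes lay within 1 percentage point of 50%, against 10.4% of 48 pairs in the 27 genes favouring the African allele and 38.5% of 21143 pairs in the other genes. At this depth the European and African reads were equal to the read in 627 pairs of the other genes (2.97%) and in 0 pairs of the 65 genes. Below 1000 reads equal counts did occur in the 65 genes, as for GB43526 in L875 Reproductive 1, on 64 reads. The sources used here do not state how a read that fits both alleles was handled, and reads counted for both would draw shares toward 50%. The selection itself keeps balanced genes out of the 65.

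Allele reads and total expression often disagreed in scale. In 33 of the 65 genes (50.8%) the allele reads over the 24 bees outnumbered the expected counts, and so did those of 62.2% of the other genes. In 5 of the 65 genes the expected counts were 0 in all bees, against 8.50% of the other genes. GB50417, chosen after its values were seen, had 57631 allele reads and 13 expected counts, and GB46128, chosen likewise, had 137403 allele reads and 452 expected counts. At the other end, GB55617 had 258 allele reads and 44940 expected counts. The sources used here do not state the counting rules of either table, so that total expression and allele share of a gene may not rest on the same transcripts.

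**Figure D3:**
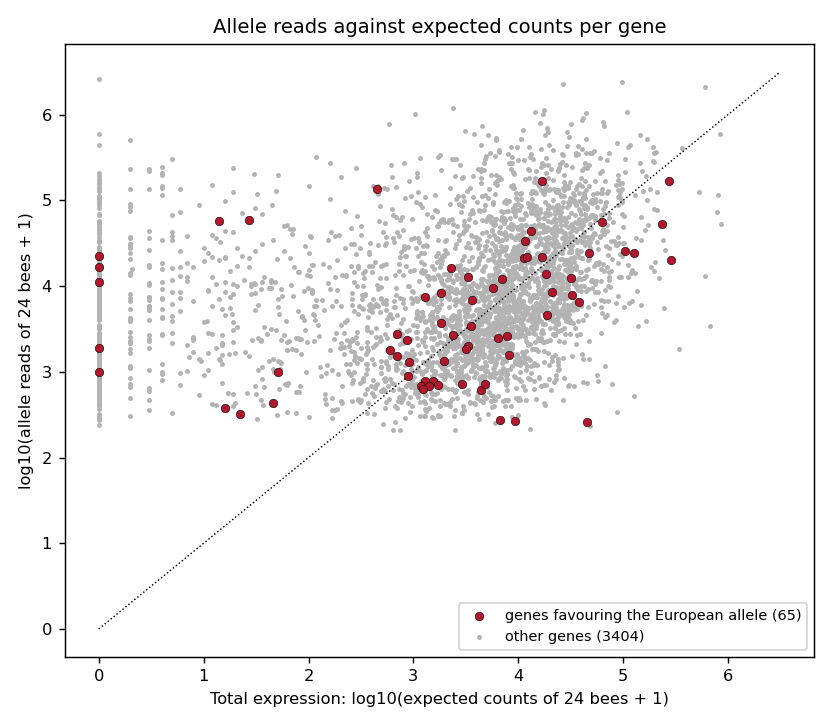
Allele reads against total expression per gene, both as log10 of the sum over 24 bees plus 1, with a dotted line of equality; red, the 65 genes; grey, the other genes with at least 40 allele reads per lineage. Of the 65 genes 33 lie above the line and 5 stand at 0 expected counts.

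Some of the 65 identifiers are numbered close together. In 6 pairs the numbers differ by at most 3, which involves 11 of the genes, among them GB42869, GB42872 and GB42873. The last 2 were chosen after their values were seen. GB42872 had summed shares of 83.96% (L888), 73.9% (L894), 72.5% (L875) and 69.4% (L882). GB42873 had 79.02% (L888), 69.7% (L894), 83.8% (L875) and 76.6% (L882). The genes with the nearest numbers on either side that had enough reads, GB42867 and GB42874, did not meet the thresholds, with 48.4% and 51.4% in L882. Positions in the genome were not used here.

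Within each status, edgeR's quasi-likelihood test of the European against the African allele was fitted over all genes with at least 20 allele reads per lineage. In reproductive bees 29 of the 63 genes that could be fitted had a Benjamini-Hochberg adjusted p under 0.05 for the European side, where 2.47% of all 3475 genes did. In sterile bees 23 of 64 did, where 2.13% of all 3480 genes did. The rule used this contrast, so nothing is read from these counts. In both statuses 18 genes were called, and 31 of the 65 in neither. Among the latter, GB47652 and GB51207 could be fitted only in sterile bees and GB49190 only in reproductive bees. These counts are not set beside counts over all genes, and nothing is read from them either. With L875 left out 16 genes were called in reproductive and 11 in sterile bees, where 56 of all 3491 and 16 of all 3508 genes were called for the European side. With L882 left out there were 12 and 10, where 58 of all 3484 and 31 of all 3489 genes were. Without the bee L882 Reproductive 1 the count in reproductive bees was 18, also without a count over all genes beside it. With lineage means as the unit, limma called 0 genes in either status, with 35 of the genes in reproductive and 46 in sterile bees at an unadjusted p under 0.05, where 257 of all 3475 and 285 of all 3480 genes were in either direction.

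The status of the bees was not part of the rule, since reads were summed over reproductive and sterile sisters. No gene of the set differed in its ratio of European to African reads between reproductive and sterile bees in edgeR's quasi-likelihood test with Benjamini-Hochberg adjustment over all genes. Of the 62 genes tested 0 were called, where 0% of all 3414 genes were. At an unadjusted p under 0.05 there were 4 of the 62, where 2.99% of all genes were. limma on log2 ratios called 0 of the 62 and DESeq2 called 1, where they called 0 and 4 of all 3414 genes. The log2 ratio was lower in reproductive bees in 41 of the 62 genes and higher in 21, where it was higher in 45.84% of all genes. The median difference was -0.14, against a median of -0.01 over all genes. With L888 left out the median was -0.14 and 0 of the genes were called, where 21 of all 3420 were. With the statuses of L888 exchanged it was 0.07, and 0 genes were called, as over all genes. In that setting 37 of the 62 were higher in reproductive bees, where 53.57% of all genes were. In block A alone, which holds L888, the median was -0.14 with 0 genes of the set called, where 1 of all 3441 was. In block B alone it was -0.19 with 1 called, where 19 of all 3459 were.

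The gene called in block B, named here because of its result, was GB40689, which was higher in reproductive bees. In L894 its European share was 77.7%, 73.9% and 72.95% in reproductive bees, against 47.1%, 55.4% and 58.3% in sterile bees, without overlap. In L882 it was 51.3%, 50.3% and 51.6% in reproductive bees, against 49.8%, 52.05% and 51.8% in sterile bees, with overlap. The log2 difference in block B was 0.68 (SE 0.11, adjusted p = 0.0382 in edgeR), and over both blocks it was 0.25 (SE 0.22, adjusted p = 1.0 in edgeR).

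GB55186 had the smallest p. In L888 its European share was 37.0%, 56.7% and 52.7% in reproductive bees, against 95.7%, 100% and 91.4% in sterile bees. In L894 it was 76.3%, 68.2% and 60.3% in reproductive bees, against 91.4%, 89.7% and 91.7% in sterile bees. In both Afr x Eur lineages every sterile sister lay above every reproductive sister.

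The Eur x Afr lineages did not show this separation of GB55186. In L875 the shares were 40%, 55.2% and 53.2% in reproductive bees, against 44.0%, 37.0% and 69.9% in sterile bees. In L882 they were 67.7%, 60% and 45.3% in reproductive bees, against 32.9%, 63.8% and 65.8% in sterile bees, so that the statuses overlapped in both. The mean share of the 12 reproductive bees was 56.1% ± 11.6 (SD) and that of the 12 sterile bees 72.8% ± 24.2 (SD), on 36 to 126 reads per bee.

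The fitted status difference of GB55186 in the log2 European to African ratio was -1.64 (SE 0.38), with an unadjusted p of 0.000291 and an adjusted p of 0.535 in edgeR, so that it did not pass. DESeq2 gave -1.65 (SE 0.36) with an adjusted p of 0.0102. The adjusted p ran from 0.0102 to 1 over the alternatives. Without L888 the difference was -1.05, and with the statuses of L888 exchanged it was 0.60, of the opposite sign. Whether the status difference itself differed between cross directions was tested by the parent by status term. This term, the status difference in the log2 ratio of paternal to maternal reads, was -1.72 (SE 0.38). Its adjusted p was 0.295 in edgeR and did not pass. The model adds the term in Afr x Eur and subtracts it in Eur x Afr, so that it is smaller in size than the difference between directions.

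GB47520 had the next smallest p with lower values in reproductive bees. In L894 its share was 81.6%, 73.1% and 67.9% in reproductive bees, against 96.7%, 96.7% and 93.9% in sterile bees, without overlap. In L888 the shares were 100%, 92.3% and 93.8% in reproductive and 94.0%, 97.2% and 99.2% in sterile bees, with overlap, and 1 of these bees had only 4 reads. In L875 reproductive sisters had 86.4%, 75.6% and 69.3% and sterile sisters 93.8%, 76.2% and 65.6%. In L882 reproductive sisters had 78.7%, 87.3% and 82.4% and sterile sisters 78.3%, 89.1% and 80%, so that both lineages overlapped. The log2 difference was -1.32 (SE 0.40, adjusted p = 1.0 in edgeR), and it was -1.54 without L888 and -0.60 with its statuses exchanged.

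**Figure D4:**
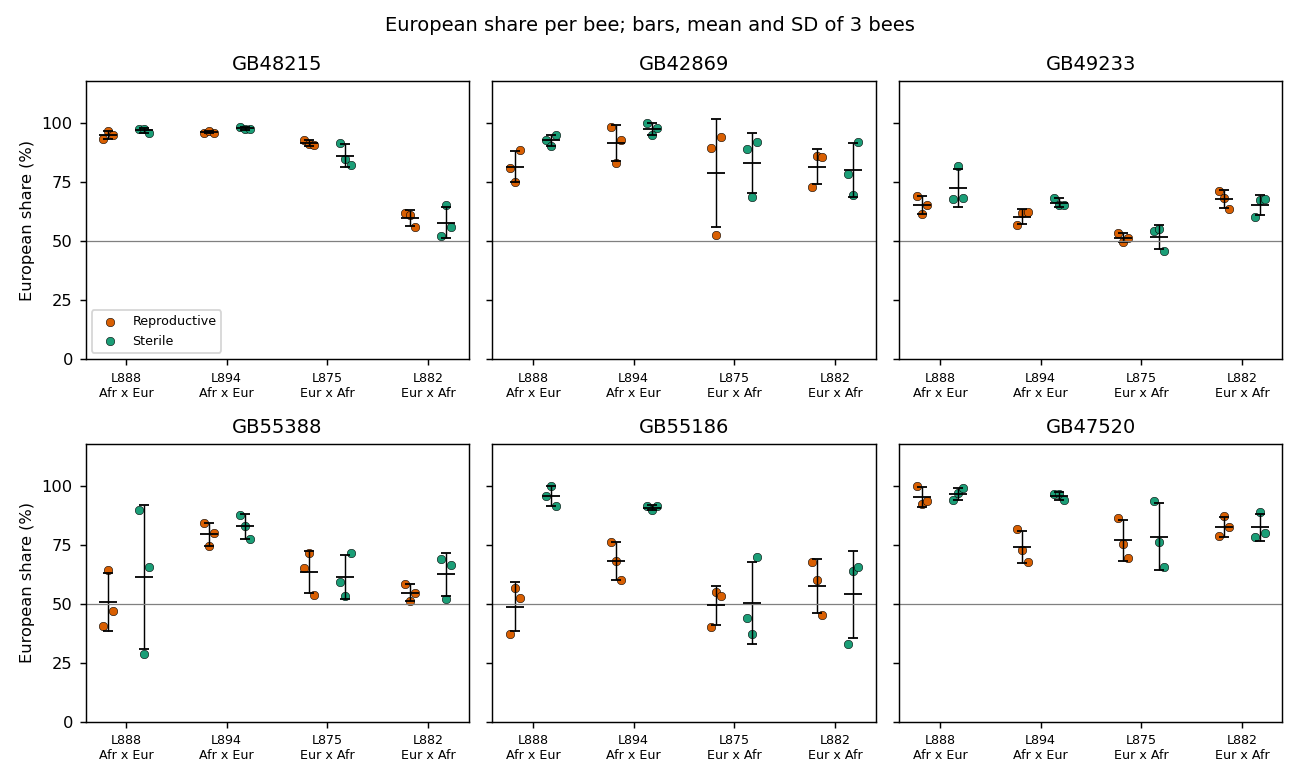
European share (%) per bee of 6 genes, by lineage, with reproductive bees (orange) left of sterile bees (green); black bars give the mean and SD of 3 bees and the grey line marks 50%. GB55186 has sterile bees between 89.7% and 100% in L888 and L894, where reproductive bees lie between 37.0% and 76.3%, and overlapping statuses in L875 and L882.

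On the other side, GB54400 and GB42764 had the smallest p with higher European shares in reproductive bees. The mean share of GB54400 was 79.6% ± 16.6 (SD) in the 12 reproductive bees and 58.8% ± 23.8 (SD) in the 12 sterile bees, on 6 to 50 reads per bee. In L882 its shares of 66.7%, 73.7% and 76.9% in reproductive bees lay above those of 57.1%, 42.9% and 42.1% in sterile bees, and the statuses overlapped in L888, L894 and L875. Its log2 difference was 1.41 (SE 0.69, adjusted p = 1.0 in edgeR), against 2.20 without L888 and 1.56 with its statuses exchanged. GB42764 had a mean of 67.9% ± 15.9 (SD) in the 12 reproductive bees and of 58.8% ± 12.4 (SD) in the 12 sterile bees, a log2 difference of 0.64 (SE 0.36, adjusted p = 1.0 in edgeR), which was 0.67 without L888 and 0.15 with its statuses exchanged.

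Total expression was also outside the rule. Of the 65 genes 54 passed the filter on low counts (filterByExpr), and 11 did not, among them the 5 without any count. Levels are given as CPM, expected counts scaled to a common library size after TMM, whose factors ran from 0.477 to 1.91. Between reproductive and sterile bees 0 of the 54 genes differed at an adjusted p under 0.05 in edgeR, where 0% of all 9316 genes did. DESeq2 and limma voom called 0 of the 54, where they called 1 and 0 of all 9316 genes. At an unadjusted p under 0.05 there was 1 of the 54 in edgeR, where 2.32% of all genes were. The log2 differences ran from -1.42 to 0.69, with a median of -0.02, and 25 of the 54 were positive, where 51.57% of all genes were. Without L888 0 of the 54 were called, where 1 of all 9263 was, and 27 were positive, where 51.08% of all genes were. With the statuses of L888 exchanged 0 were called, where 0 of all 9316 were, and 28 were positive, where 50.62% of all genes were.

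The gene with the unadjusted p under 0.05 was GB46001, at 0.33 to 3.61 CPM with a median of 1.21 in reproductive bees and 0.211 to 25.2 CPM with a median of 2.35 in sterile bees. A single sterile bee, L888 Sterile 2, had 25.2 CPM, and the other sterile bees had 6.93 or less. The log2 difference was -1.42 (SE 0.63, adjusted p = 0.9998 in edgeR), and it was between -1.58 and -0.55 when single bees were left out, with -0.55 without L888 Sterile 2. Without L888 it was -0.75 and with the statuses of L888 exchanged 0.20. GB43526 came next on this side, with 12.96 to 43.5 CPM and a median of 19.9 in reproductive bees and 10.3 to 56.5 CPM and a median of 29.2 in sterile bees. Its log2 difference was -0.38 (SE 0.21, adjusted p = 0.9998 in edgeR), and it was -0.48 without L888 and -0.34 with its statuses exchanged.

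With higher values in reproductive bees, GB43890 had 16.2 to 32.6 CPM with a median of 21.6, against 14.01 to 24 CPM with a median of 20.2 in sterile bees. Its log2 difference was 0.21 (SE 0.11, adjusted p = 0.9998 in edgeR), and it was 0.27 without L888 and 0.18 with its statuses exchanged. GB55510 had 3.95 to 16.7 CPM with a median of 7.13 in reproductive bees, against 3.13 to 9.62 CPM with a median of 6.56 in sterile bees, a log2 difference of 0.33 (SE 0.17, adjusted p = 0.9998 in edgeR), which was 0.41 without L888 and 0.29 with its statuses exchanged. In each of these 4 genes the ranges of the statuses overlapped. GB55186, whose European share separated by status in the Afr x Eur lineages, had a mean of 12.3 ± 2.36 CPM (SD) in the 12 reproductive bees and of 11.98 ± 2.51 CPM (SD) in the 12 sterile bees, with a log2 difference of 0.04 (SE 0.13).

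Between cross directions total expression was compared within blocks. In block A, L888 (Afr x Eur) against L875 (Eur x Afr), edgeR called 1 of the 54 genes, where 0.150% of all 9316 genes were called, and 13 had an unadjusted p under 0.05, where 13.2% of all genes did. In block B, L894 (Afr x Eur) against L882 (Eur x Afr), it called 0 of the 54, where 0.118% of all genes were called. At an unadjusted p under 0.05 there were 4 of the 54 in block B, where 13.1% of all genes were. DESeq2 and limma voom called 0 of the 54 in block B, where they called 71 and 5 of all 9316 genes. The median log2 difference of the 54 genes was -0.11 in block A and 0.11 in block B, against 0.00 and -0.02 over all genes. Of the 54 genes 21 had the same sign in both blocks, where 34.9% of all genes did, and 14 of them were higher in Afr x Eur. None of the 54 was called in both blocks by edgeR, where 1 gene of all was.

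**Figure D5:**
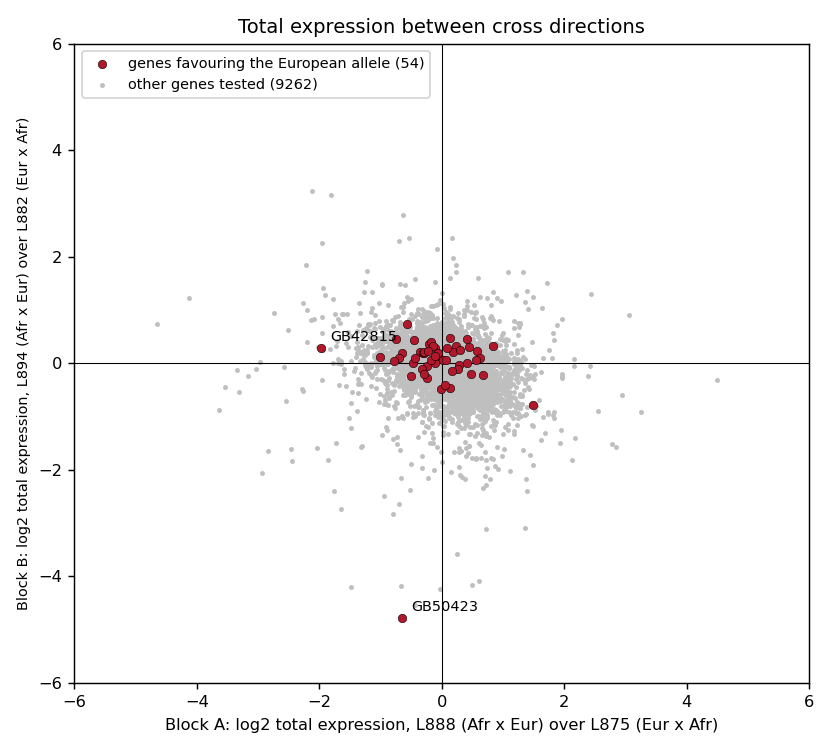
log2 difference in total expression of Afr x Eur over Eur x Afr, in block A (horizontal) and block B (vertical), 1 point per gene; red, the 54 genes tested; grey, the other 9262, of which 3 lie beyond the axes. Most red points lie within the cloud of the other genes near 0, and GB42815 in block A and GB50423 in block B lie farthest out.

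The called gene was GB42815, named here because of its result. It had 2.73 to 5.02 CPM with a median of 3.80 in the 6 bees of L888, against 3.83 to 23.6 CPM with a median of 16.3 in the 6 bees of L875. The ranges overlapped through 1 bee, L875 Reproductive 1, at 3.83 CPM, and the other 5 bees of L875 had 7.26 CPM or more. The log2 difference was -1.97 (SE 0.31, adjusted p = 0.00457 in edgeR), and the adjusted p stayed below 0.05 in every alternative, at most 0.0241. In block B the gene had 12.8 to 25.4 CPM with a median of 16.8 in L894, against 11.6 to 19.5 CPM with a median of 13.8 in L882, a log2 difference of 0.28 (SE 0.29, adjusted p = 0.678 in edgeR). The low level was measured in L888 and not in L894, the other Afr x Eur family. The European share of GB42815 in L888 was 56.4% to 93.7%. Its allele reads, not scaled for depth, stood in the opposite order, with 486 in L888 and 159 in L875. Single bees of L875 had 1 to 46 of them. Why the 2 measures of this gene disagree was not tested.

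The largest difference in block B was that of GB50423, also named after its values were seen. In L882 it had 2689, 7.66 and 4.36 CPM in reproductive bees, against 1114, 13.5 and 5.46 CPM in sterile bees, so that 1 bee of each status stood far above the other 4. In L894 it had 10.5 to 32.1 CPM. The log2 difference was -4.79 (SE 1.37, adjusted p = 0.200 in edgeR) and was -1.17 without L882 Reproductive 1 and -2.13 without L882 Sterile 1. In L875 1 bee, Reproductive 3, had 426 CPM, against 8.004 to 30.03 CPM in its sisters.

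Genes with the same sign in both blocks were ranked by the larger of their 2 p values, and GB47625 and GB48215 came first on the higher side. GB47625 had medians of 139 CPM in L888 against 109.8 CPM in L875, and of 126 CPM in L894 against 96.5 CPM in L882. Its log2 differences were 0.44 (SE 0.19, adjusted p = 0.353) in block A and 0.30 (SE 0.19, adjusted p = 0.486) in block B in edgeR. GB48215, the gene with the highest European share, had medians of 138 CPM in L888 against 125.9 CPM in L875, and of 125.1 CPM in L894 against 104.9 CPM in L882, with log2 differences of 0.18 (SE 0.13) and 0.22 (SE 0.13). On the lower side, ranked likewise, GB55186 had log2 differences of -0.29 (SE 0.18) in block A and -0.19 (SE 0.18) in block B, and GB47652 had -0.24 (SE 0.24) and -0.27 (SE 0.24), and in none of these 4 genes did the adjusted p of edgeR pass in either block.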

How the data were processed

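PolyA RNA of 24 worker brains was sequenced as paired ends over 2 lanes, per the labels. The authors deposited a table of expected counts (estimated counts, 87.3% of them whole) for total expression, and 2 allele tables whose values, per the file headers, are read counts assigned to the drone (paternal) or queen (maternal) allele. HISAT2 and limma are named, without a role or version, per the submitters' processing notes. The genome build, the gene models, the counter and how reads were split between alleles: not given in the sources used here. Repeated entries (3 in the reproductive and 1 in the sterile table) were reduced to 1 each.

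Status, lineage, cross and block came from the sample labels. Expected counts were rounded, filtered with filterByExpr grouped by status and tested with edgeR 4.0.16 (R 4.3.3), TMM factors and quasi-likelihood tests. Allele reads entered as 2 columns per bee, European and African, that shared a library size. The model had a block per bee and terms for allele and for parent, each also by status for the status comparison, and took genes with at least 20 allele reads per lineage (and status). Tests were two-sided, with Benjamini-Hochberg adjustment over all genes and a threshold of 0.05. DESeq2 1.42.0 and limma 3.58.1 (log ratios with a prior count of 0.5) were alternatives. The grouping of filterByExpr was settled after a filter by the 8 groups had been run, which is given as an alternative. The fits were also run on simulated counts with known differences. Those counts had the same spread setting for all genes and no differences between families of the same cross. Nothing is read from them here.

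The genes and lists were chosen with earlier results of these data known. The rule for named genes took 2 identifiers per list: highest share, most reads, just inside and just outside the thresholds, largest gaps between cross directions, largest and smallest spread among sisters, and smallest p in each direction of each comparison (for cross directions, the larger of the p values of both blocks). A further 7 genes, among them GB42815 and GB50423, were chosen after their values were seen. Intervals and SDs cover these bees only, and reads without molecular identifiers are not independent molecules.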

Additional observations from a re-analysis of the deposited data

Results flagged for a closer look

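Values of single bees that lay far from those of their sisters were sought in the named genes, in the European share and, for genes named for total expression, in CPM. Of 144 groups of sisters 9 were found by Dixon's test at the 95% level, which chance gives in about 1 of 20 groups. Some of these genes were named for a large spread among sisters or after their values were seen. For them this rate need not hold. Of the 9 values 3 were in the bee L888 Sterile 2. Its European share of GB49233 was 82.0%, against 61.4% to 69.1% in its sisters, on 7511 reads. Its share of GB50423 was 62.4%, against 56.4% to 58.4%. Its total expression of GB46001 was 25.2 CPM, against 0.268 to 1.28 CPM. GB46001 also stood out in L875 Sterile 1, at 6.93 CPM, against 0.211 to 1.74 CPM in its sisters. GB50423 had 426 CPM in L875 Reproductive 3, against 8.004 to 30.03 CPM. The other shares rested on few reads. GB54400 had 14.3% in L894 Sterile 2 (21 reads), against 75% or more in its sisters. GB52548 had 100% in L875 Sterile 1 (16 reads), against 67.6% or less. GB47652 had 33.3% in L888 Reproductive 1 (6 reads), against 88.9% or more. GB55510 had 33.3% in L882 Reproductive 1 (21 reads), against 53.7% or more.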

How the results depend on the processing

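The set held 34 genes at 60% in 3 lineages, 108 with a threshold midway between 50% and 55%, 30 at 55% in all 4 lineages, and 63 to 72 without single bees. For status in the allele ratio DESeq2 called 1 gene (GB55186, -1.65), where 4 of all 3414 were called, and block B alone 1 other gene (GB40689, 0.68), where 19 of all 3459 were, against 0. With the statuses of L888 exchanged, an alternative chosen after the data were seen, GB55186 had a log2 difference of 0.60 in the ratio, and GB46001 one of 0.20 in total expression. For European over African reads, which the rule used, the 29 genes in reproductive bees became 16 without L875, 12 without L882 and 0 with lineage means in limma, and 18 to 26 without single bees, with 18 without L882 Reproductive 1. The 23 in sterile bees became 44 in DESeq2, 11 without L875, 10 without L882, 0 with lineage means, and 19 to 28 without single bees. In reproductive bees DESeq2 called 43. Of all genes it called 183 of 3475 in reproductive and 204 of 3480 in sterile bees for the European side, against 86 and 74 in edgeR. The counts without single bees are not set beside counts over all genes. Filtering by the 8 groups tested 10071 genes and called 22 and 12 of all genes for cross direction in blocks A and B, against 14 and 11, with the same number of the 65. DESeq2 called 83 and 71 of all genes there. Over all other alternatives, 722 values kept their direction and their side of the threshold, or their count within 1.5 times. The 2 alleles of a bee were paired by the block per bee. Single reproductive and sterile sisters could not be paired because the labels give no shared replicate numbers. Each cross direction has 1 family per block, so that family and direction cannot be told apart, and some shares of single bees rest on fewer than 10 reads.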
